A study of Homo sapiens with 7 samples.

Results

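Open chromatin was mapped by ATAC-seq, in which the Tn5 transposase inserts sequencing adapters into accessible DNA, so that a peak marks a stretch where many insertions fell. All 7 libraries came from the H1 line of embryonic stem cells, an established human line, with no genetic change named in the labels. They cover 4 stages of a stepwise differentiation. Undifferentiated cells (hESC), the definitive endoderm made from them (hDE) and anterior foregut endoderm (hAFE) have 2 libraries each, and the last stage, pharyngeal foregut endoderm (hPFE), has 1. The titles mark the hESC and hDE libraries as re-analysed and leave the hAFE and hPFE libraries unmarked, and they do not say whether replicates were separate cultures. The regions described here are distal sites with a strong peak in hPFE and no peak at any earlier stage. A peak was strong when its number in the deposited list, which follows the order of p from the lowest, was at most 80,000. Overlapping strong peaks (chromosomes 1 to 22 and X, any library) were merged into 167407 regions, of which 149704 were distal, meaning over 1 kb from both ends of every protein-coding gene. The members were chosen by their peaks: a strong hPFE peak and no deposited peak of any rank in the other 6 libraries. There were 11346 members, which is 7.58% of the distal regions and 23.7% of the 47972 distal regions strong in hPFE. These shares follow from the rule and are a description of the 1 hPFE library.

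The pharyngeal endoderm is the part of the foregut lining that forms the pouches, from which the thymus, the parathyroid glands and parts of the middle ear and tonsils arise. Enhancers, the distal elements that raise the transcription of genes, are usually accessible only in the cell types and at the stages in which they are used. They are opened by transcription factors that recognise short motifs. GATA and FOXA factors do this in endoderm. AP-1, a dimer of JUN and FOS family proteins, opens enhancers in many cell types in response to growth factors and attachment. Whether a member is an enhancer was not measured.

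Sequence could be read at the members that overlap a gene start. RefSeq's promoter windows (GRCh38.p14, which is hg38) span 250 bases before to 50 bases after a start, and 34961 such windows lie on the chromosomes used. Of the members, 78 (0.687%) overlapped 80 windows, 64 of non-coding genes and 16 of protein-coding genes, whose starts there lie away from the ends of the gene's span. The 250 bases before the start are printed for the 5 windows with an AP-1 motif in these bases and the 2 with none in the whole window that lay at the members with the lowest p, among windows with all of these bases inside the member. They show how the motif sits before a start, while the shares given next count the whole windows, which also hold the 50 bases after the start. Letters in capitals are matches to TGANTCA, the AP-1 motif, which reads the same on both strands. Each line runs 5′ to 3′ along the strand of the gene.
SERPINB7 (chr18:63775168-63775417, plus strand): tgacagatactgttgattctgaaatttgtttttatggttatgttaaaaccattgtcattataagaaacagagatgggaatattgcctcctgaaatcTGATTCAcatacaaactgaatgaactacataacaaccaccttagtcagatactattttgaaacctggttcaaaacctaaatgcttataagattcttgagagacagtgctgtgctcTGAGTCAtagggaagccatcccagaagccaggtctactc
LOC124902270 (chr9:125538033-125538282, plus strand): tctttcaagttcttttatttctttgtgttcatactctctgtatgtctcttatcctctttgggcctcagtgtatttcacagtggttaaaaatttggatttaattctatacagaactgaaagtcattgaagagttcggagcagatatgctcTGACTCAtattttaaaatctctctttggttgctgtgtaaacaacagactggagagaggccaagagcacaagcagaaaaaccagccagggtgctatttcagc
LOC105376206 (chr9:107504884-107505133, plus strand): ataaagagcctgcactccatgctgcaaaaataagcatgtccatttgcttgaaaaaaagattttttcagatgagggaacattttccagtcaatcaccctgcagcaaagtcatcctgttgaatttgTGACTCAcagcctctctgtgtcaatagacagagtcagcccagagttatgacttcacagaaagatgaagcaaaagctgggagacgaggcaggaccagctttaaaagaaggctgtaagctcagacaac
PRKG2-AS1 (chr4:81164690-81164939, plus strand): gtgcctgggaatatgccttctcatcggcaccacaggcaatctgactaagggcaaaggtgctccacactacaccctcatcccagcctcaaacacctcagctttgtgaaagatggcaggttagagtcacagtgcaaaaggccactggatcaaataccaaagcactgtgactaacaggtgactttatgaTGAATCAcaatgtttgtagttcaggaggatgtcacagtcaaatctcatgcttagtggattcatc
FANK1-AS1 (chr10:125973274-125973523, minus strand): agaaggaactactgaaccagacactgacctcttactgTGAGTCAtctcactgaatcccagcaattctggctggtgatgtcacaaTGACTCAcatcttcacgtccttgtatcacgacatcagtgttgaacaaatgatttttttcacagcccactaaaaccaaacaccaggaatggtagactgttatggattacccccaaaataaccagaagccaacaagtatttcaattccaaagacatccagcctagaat
LINC00706 (chr10:6779181-6779430, minus strand): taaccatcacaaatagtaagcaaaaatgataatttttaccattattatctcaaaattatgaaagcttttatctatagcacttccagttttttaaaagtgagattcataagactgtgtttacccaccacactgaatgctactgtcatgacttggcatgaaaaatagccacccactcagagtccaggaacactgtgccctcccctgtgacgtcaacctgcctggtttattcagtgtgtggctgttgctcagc
TEX26-AS2 (chr13:30977641-30977890, minus strand): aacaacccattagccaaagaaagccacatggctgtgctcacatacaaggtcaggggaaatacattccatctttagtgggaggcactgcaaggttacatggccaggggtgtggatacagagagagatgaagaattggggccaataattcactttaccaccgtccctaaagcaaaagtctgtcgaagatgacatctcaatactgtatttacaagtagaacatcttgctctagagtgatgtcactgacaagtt
SERPINB7 encodes a serine protease inhibitor of the epidermis and is the only protein-coding gene of the 7, and its window and that of FANK1-AS1 hold 2 matches each. The deposited fold enrichments of the members over these windows were 15.5 at SERPINB7, 12.9 at LOC124902270, 11.1 at LOC105376206, 11.8 at PRKG2-AS1 and 12.4 at FANK1-AS1. At LINC00706 and TEX26-AS2, without the motif, they were 13.6 and 8.27.

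More than 1 in every 2 of the windows overlapped by members held the AP-1 motif. It stood in 43 of the 80 windows (53.8%, 95% Wilson interval 42.9% to 64.3%, counting error only), against 7.68% of all 34961 windows. In the windows overlapped by regions strong in 1 library and absent from the other stages, it stood in 3 of 40 for hESC replicate 1, 2 of 43 for hESC replicate 2, 1 of 12 for hDE replicate 1, 7 of 43 for hDE replicate 2, 1 of 25 for hAFE replicate 1 and 3 of 29 for hAFE replicate 2. Some windows stood in more than 1 of these sets. With each window counted once, the sets together gave 15 of 152 windows (9.87%, interval 6.07% to 15.6%), whose interval lies below that of the members. The same letters read backwards, ACTNAGT, stood in 5 of the 80 windows (6.25%), against 4.66% of all windows. The windows at members were poorer in G and C (median 41.7%) than all windows (58.7%). Within the middle range of the members' GC content, from 38.3% to 45.8%, the motif stood in 23 of 42 windows at members (54.8%) and in 639 of 4843 windows in all (13.2%). By gene type the shares were 33 of 64 non-coding windows at members (51.6%), against 10.3% of all non-coding windows. Of the protein-coding windows at members it stood in 10 of 16 (62.5%, interval 38.6% to 81.5%), beside the 7.68% of all windows of both types. AP-1 was singled out of the 6 motifs searched after these shares were seen.

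**Figure D1:**
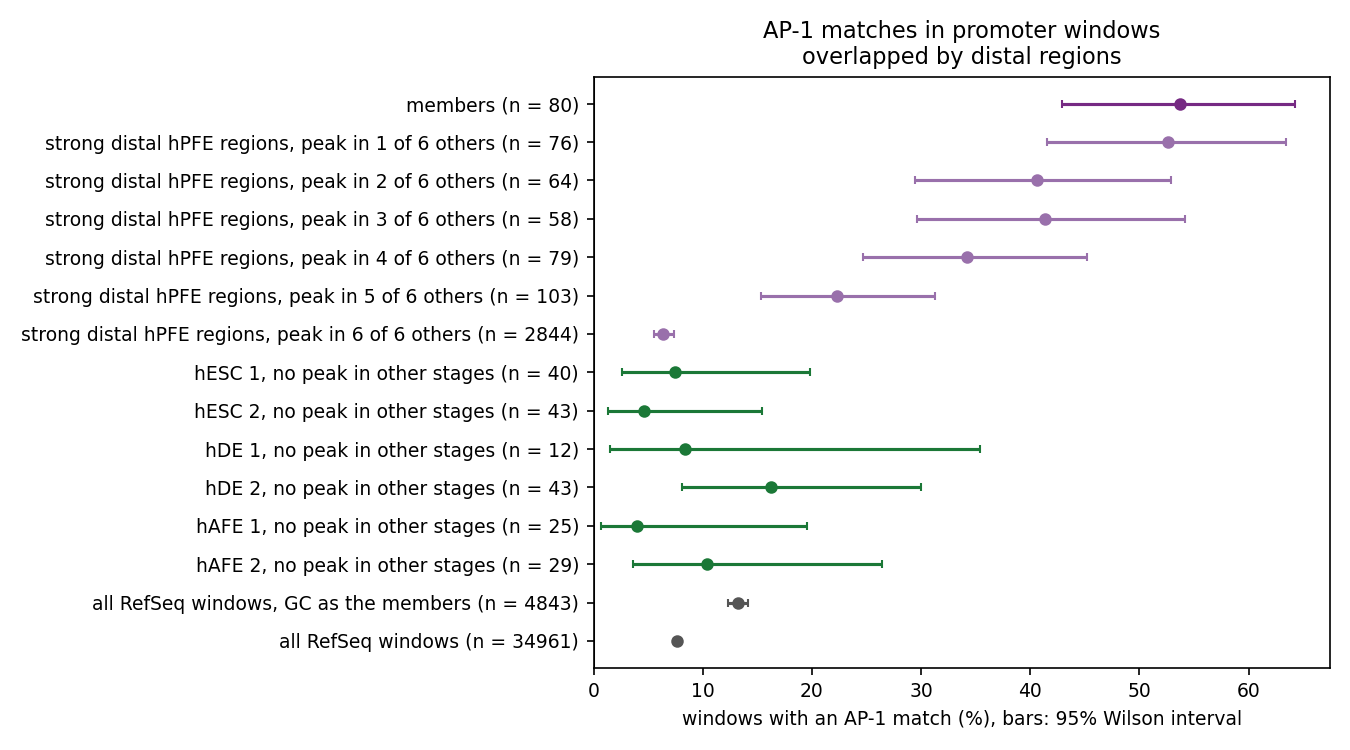
The share of promoter windows with an AP-1 match (horizontal axis, percent) by the kind of distal region that overlaps them, with 95% Wilson intervals. The members stand at 53.8%, strong hPFE regions with a peak in all 6 other libraries at 6.36%, and the sets strong in 1 library of another stage at 4.00% to 16.3%.

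The motif was not confined to the members. Among distal regions strong in hPFE, its share was 52.6% of windows (40 of 76) where 1 other library had a peak, 40.6% with 2, 41.4% with 3, 34.2% with 4, 22.3% with 5 and 6.36% (181 of 2844) where all 6 had one. The windows of the last kind were also the richest in G and C (median 64.7%), so sharing and base composition moved together, and the part of base composition was not tested beyond the range given above. Among the members, the shares were 33 of 52 windows (63.5%) at members on the stronger side of the median p, against 10 of 28 (35.7%) on the weaker side, with intervals of 49.9% to 75.2% and 20.7% to 54.2% that overlap. Of the 2 forms, TGAGTCA, which is TGACTCA on the other strand, stood in 37 windows at members (46.3%, against 4.92% of all windows) and TGAATCA, which is TGATTCA on the other strand, in 14 (17.5%, against 2.98%). In 12 windows there were 2 matches or more, with 4 at most, in the window of LOC105375208.

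The AP-1 matches lay close to the summit, the point of highest signal. The 58 matches in these windows had a median distance of 27.5 bp from the summit of the hPFE peak, 40 of them (69.0%) lay within 50 bp of it, and 56 lay inside the member itself. The other 5 motifs were read on both strands in the same windows, and their matches lay further out. Distances expected of chance matches were not computed, so whether the difference belongs to the factors was not tested. GGAATG, the motif of TEAD factors, had a median distance of 106 bp. That of GATA factors (AGATAA) had 139.5 bp, that of FOX factors (TGTTTA) 77.5 bp, that of RUNX factors (TGTGGT) 122.5 bp and that of SOX factors (ACAATG) 116.5 bp, and between 15.6% and 36.4% of their matches lay within 50 bp. Only 3 of the AP-1 matches overlapped a match of another of these motifs. Of the 80 windows at members, TEAD stood in 20, GATA in 28 (35.0%), FOX in 20, RUNX in 19 (23.8%) and SOX in 15 (18.8%), against 14.0%, 10.3%, 12.3%, 13.1% and 10.7% of all windows in the same order. Unlike AP-1, they reached like shares in single sets of other stages, with FOX in 36.0% and 37.9% of the windows of the hAFE sets, GATA in 33.3% and 23.3% of those of the hDE sets, TEAD in 32.0% for hAFE replicate 1, and RUNX and SOX in 37.2% and 23.3% for hDE replicate 2. A match is a run of letters and no measurement of binding.

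**Figure D2:**
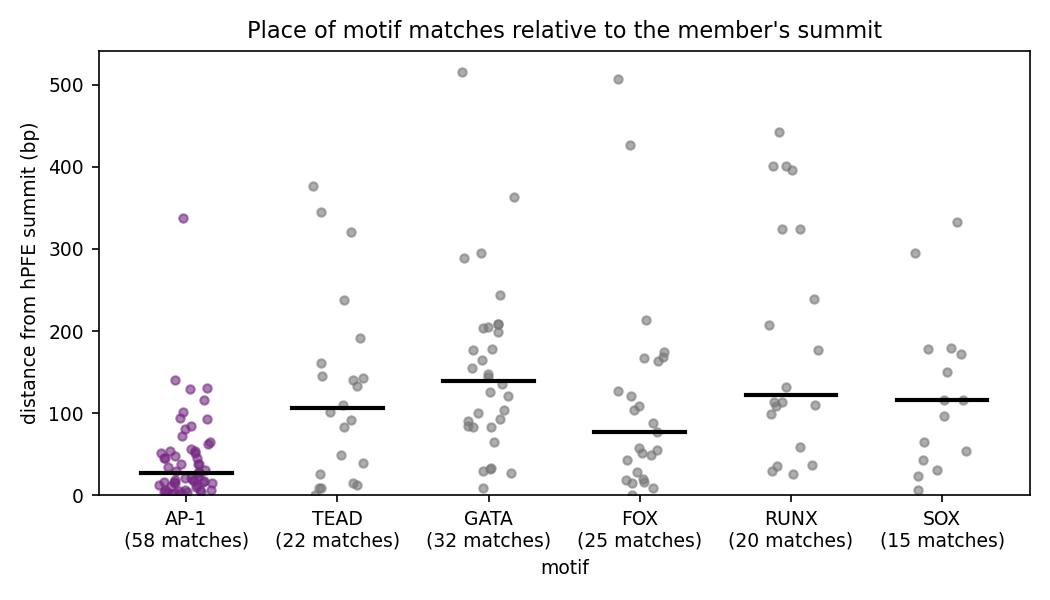
Distance in bp from the hPFE summit of the member (vertical axis) for every match of 6 motifs in the windows at members, 1 point a match, with a black line at the median. The AP-1 points gather near 0 (median 27.5 bp), and the medians of the other motifs lie between 77.5 and 139.5 bp.

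How far the members' number depends on having 1 hPFE library could be set beside the other libraries, each taken alone. Regions strong in 1 library and without a peak in any library of the other stages made up 9.16% and 7.66% of the strong distal regions of the 2 hESC libraries, 9.81% and 16.1% of those of hDE, 8.18% and 6.21% of those of hAFE and 23.7% of those of hPFE. The share in hPFE was thus the highest, although a region there had to be absent from 6 libraries and elsewhere from 5. Strong goes by the order of p within a library, so strong peaks differed in height between libraries, as given below. What part this had in the shares was not tested. With 40,000 or 120,000 strong peaks a library, hPFE was again the highest, at 18.8% and 27.2%. Where strong meant a −log10 q of at least 5, it was 27.0% in hPFE and 27.8% in hDE replicate 2, so the order depends on the limit. Of such one-library regions, between 70.0% (hESC replicate 1) and 99.5% (hDE replicate 1) had a peak of any rank in the replicate of the same stage, but only between 31.6% (hESC replicate 1) and 82.5% (hDE replicate 1) had a strong one. No such figure exists for hPFE. How many members would recur in a further hPFE library was therefore not tested.

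**Figure D3:**
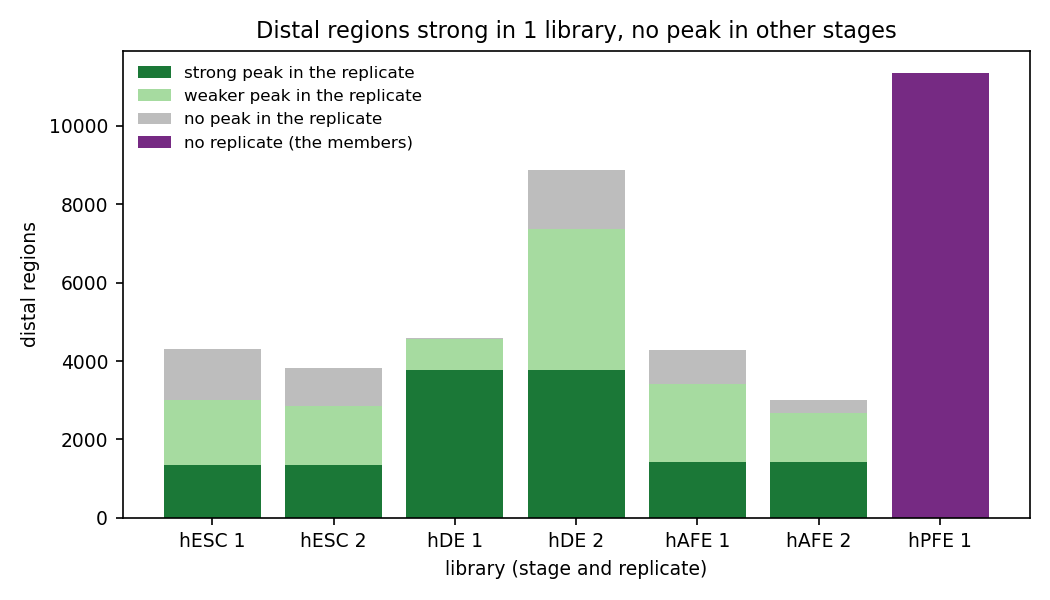
Number of distal regions strong in 1 library with no peak in any other stage (vertical axis), by library. Colours divide the regions by what the replicate of the same stage shows; hPFE, with 11346 regions, has no replicate, and hDE replicate 2 follows with 8860.

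The libraries differed in depth, which bears on absence. The background recovered from the deposited values, in counts at a site, was 2.11 and 4.62 (hESC), 4.58 and 7.94 (hDE), 2.22 and 3.85 (hAFE) and 5.66 (hPFE), so hPFE was deeper than all but hDE replicate 2. The lists end at 300,000 numbered peaks in every library. The weakest deposited summit stood between 2.47 (hPFE) and 3.78 (hDE replicate 2) times the background of its library. The lowest hPFE summit of a member, 4.95 times background, is set by the limit of strong, so its height says nothing about single members. The weakest strong summit was lowest in hPFE, also at 4.95 times background. In the other libraries it stood between 5.68 (hDE replicate 1) and 12.2 (hDE replicate 2). The −log10 p at the limit of strong was 11.5 in hPFE, and between 7.25 (hESC replicate 1) and 69.2 (hDE replicate 2) in the others. Since p also depends on the local background and on depth, absence here means no listed peak and not zero signal. In bulk material, fewer open cells and less open chromatin per cell cannot be told apart.

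The hPFE peaks of the members were weaker than those of the other strong distal hPFE regions, which is a description, since peak values chose the members. Their fold enrichment, the authors' ratio of the summit to the local background, had a median of 5.56 (lowest 2.14, highest 18.5), against 5.95 in the 36626 other strong distal hPFE regions. The median −log10 p was 20.2 against 24.6 and the median summit 43 counts against 51. The merged regions had a median width of 380.5 bp against 623 bp. By the rule only hPFE peaks make up a member, while peaks of other libraries can lengthen the other regions. The widths are thus no comparison of hPFE peaks. The share of members among strong distal hPFE regions was 7.16% in the first 10,000 peak numbers (258 of 3602 regions) and 29.4% in those from 60,001 to 80,000 (3898 of 13269). Stronger hPFE sites were thus more often shared with another library. The limit itself separates nothing in the values: the 3 members just inside it (peak numbers 79996, 79998 and 80000) had fold enrichments of 3.80, 3.73 and 4.14, and the 3 regions just outside it (80001, 80008 and 80010) had 4.14, 4.14 and 4.05, all at a −log10 p of 11.5. Most strong distal hPFE regions fell at the extremes of sharing, with a peak in none of the other 6 libraries (11346) or in all 6 (15154, 31.6%), and between 3310 and 5317 in each class between.

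The 10 members with the lowest p were spread over 8 chromosomes, and 5 of them lay within 100 kb of a gene end. The first lay in the span of KCTD1, 39734 bp from its nearest end, at chr18:26616983-26617739 (hg38 throughout), with a fold enrichment of 15.5, a −log10 p of 197 and a summit of 240 counts. The highest fold enrichment of any member, 18.5, belonged to the second, at chr10:117652896-117653527, whose nearest gene end is 103350 bp away. Neither of these is near a gene end. The third lay 7031 bp from KRT23, a gene of a type I keratin of epithelia, at chr17:40915082-40915669, with a fold enrichment of 16.0. The member at BBOX1, which encodes the last enzyme of carnitine synthesis, lay inside the gene at chr11:27054995-27055589 and had 15.4. The member at SERPINB7, whose promoter window is printed above, lay at chr18:63775034-63775763 and had a summit of 174 counts. The member nearest to GPCPD1, a glycerophosphocholine phosphodiesterase gene, lay 43476 bp from it at chr20:5654482-5654994 with a fold enrichment of 14.7. The other 4 had no gene end within 100 kb. Their fold enrichments were 13.1 at chr6:105596247-105596867, 14.7 at chr5:68683400-68684199, 17.1 at chr18:67360048-67360676 and 16.9 at chr8:121776175-121776767.

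Members lay farther from genes than the rest of the strong distal hPFE regions. Their median distance to the nearest end of a protein-coding gene was 72925 bp, against 43485.5 bp for other strong distal hPFE regions and 22652.5 bp for the 8064 distal regions strong in all 7 libraries. No gene end lay within 100 kb of 4775 members (42.1%, Wilson interval 41.2% to 43.0%), against 30.5% of the other strong distal hPFE regions and 17.5% of those strong in all libraries. In the one-library sets of the other stages the share ranged from 32.8% (hESC replicate 2) to 49.1% (hDE replicate 2). The span of a protein-coding gene held 45.6% of the members (interval 44.7% to 46.5%), against 48.2% of the other strong distal hPFE regions and 38.3% to 47.9% of the one-library sets. An end of a non-coding gene lay within 1 kb of 4.91% of members, against 10.6% and 20.3% of the other hPFE regions and of regions strong in all libraries. In the one-library sets of the other stages it ranged from 4.02% (hAFE replicate 1) to 6.35% (hESC replicate 2), so members lay within their range. Of 1558 miRNA hairpins on these chromosomes, 5 overlapped the 11346 members, those of MIR4276, MIR583, MIR587, MIR6133 and MIR626, against 56 that overlapped the 36626 other strong distal hPFE regions and 125 the 149704 distal regions in all.

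By chromosome, the share of strong distal hPFE regions that were members was highest on X, with 294 of 893 (32.9%), followed by chromosome 4 with 27.7%. It was lowest on chromosome 19, with 85 of 927 (9.17%), and next lowest on the gene-dense chromosomes 22 (15.2%) and 17 (16.6%). Members were often close to peaks of other stages without touching them. A peak of another library lay within 500 bp of 22.6% of the members, within 1 kb of 41.2% and within 5 kb of 89.5%, and one of hAFE lay within 10 kb of 88.3%. For the one-library sets of the other stages, a peak of another stage lay within 5 kb of 82.5% to 89.1%.

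Some members stood in runs. Runs of members at most 12,500 bp apart took in 1815 members (16.0%), and 83 runs had 3 members or more. Among the 36626 other strong distal hPFE regions 37.3% stood in such runs, with 1418 runs of 3 or more, and among all distal regions 77.8% did. The one-library sets of the other stages had between 4.80% (hESC replicate 1) and 12.2% (hDE replicate 2) in runs. The sets differ in size, and members were thus less often in runs than the larger sets and more often than the smaller ones. The longest run, of 5 members, lay beside EVA1A, a gene of a membrane protein of autophagy, at chr2:75580590-75600959, with fold enrichments of 4.02 to 7.57. A run of 4 lay near CDC42EP3, which encodes an effector of the GTPase CDC42, at chr2:37552298-37571493, with 5.40 to 12.9. Further runs of 4 lay in the span of NRG1, the gene of the growth factor neuregulin 1 (3.96 to 10.7), in the span of LYST, the lysosomal trafficking regulator (5.69 to 7.75), and near MARCHF1, a membrane ubiquitin ligase gene (4.10 to 8.29).

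Members were then assigned to the protein-coding gene with the nearest end within 100 kb, which does not show that the gene is regulated by them. Of 19970 genes, 4410 (22.1%) had at least 1 member, 2968 of them exactly 1, 964 with 2, 329 with 3, 87 with 4 and 62 with 5 or more. The 6571 assigned members were 6.78% of the 96922 distal strong regions with an assigned gene, and this is the share against which single genes and lists are read. Genes with long spans and empty surroundings gather more regions of every kind, so the number of members is given with the number of distal regions. Since members are strong in hPFE by the rule, a high hPFE number at a gene with many members follows in part from it and is given as a description.

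RUNX1, which encodes a transcription factor required for blood formation and also active in epithelia, had 8 members among 28 distal regions. Its strong distal regions numbered 4 and 8 (hESC), 5 and 6 (hDE), 7 and 6 (hAFE) and 16 (hPFE), so 8 of the 16 in hPFE had no peak elsewhere. The fold enrichments of the 8 members were 10.6, 8.89, 8.05, 5.75, 5.70, 5.55, 4.64 and 4.28. The strongest lay in the span of RUNX1 at chr21:34950609-34951321, 97981 bp from its nearest end, with a summit of 90 counts or 15.9 times background. RUNX1 was the highest of its family list, in which 13 of 86 distal regions were members (15.1%, interval 9.05% to 24.2%). RUNX2, a factor of bone formation, had 2 of 20. RUNX1T1, a corepressor gene listed with the family though no RUNX factor itself, had 2 of 28. The other 4 genes of the list hold 5 members, and the list was drawn up with the place of RUNX1 known.

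PDGFC, the gene of a platelet-derived growth factor ligand for mesenchymal receptors, had 8 members among 26 distal regions. Its strong regions numbered 4 and 5 (hESC), 4 and 6 (hDE), 6 and 8 (hAFE) and 17 (hPFE). The fold enrichments of the members were 10.2, 9.81, 8.11, 7.38, 5.11, 4.56, 4.42 and 3.52, and 5 of the 8 lay in the span of the gene. The strongest lay there at chr4:156781916-156782219, with a summit of 87 counts. Its upper end had a strong peak in all 7 libraries, and no library had a peak within 1 kb of its lower end.

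**Figure D4:**
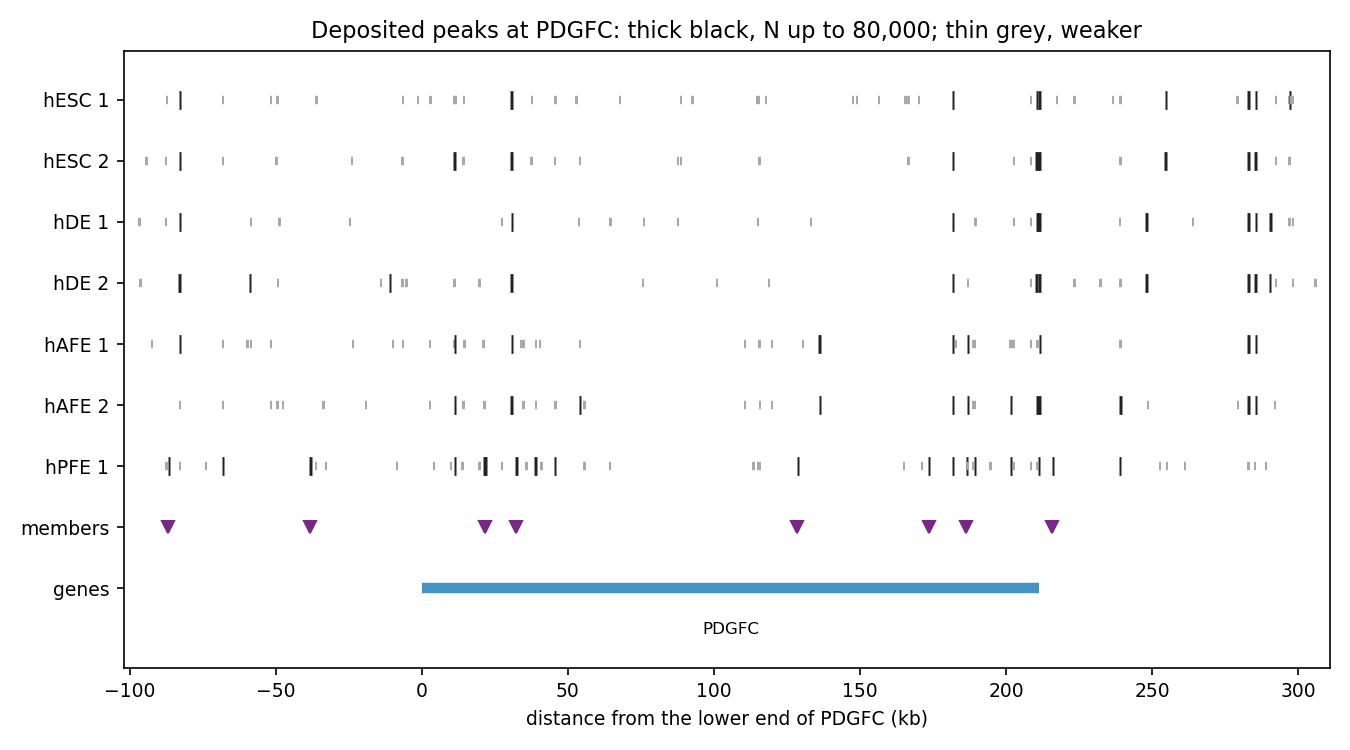
Deposited peaks around PDGFC in the 7 libraries (rows), by distance in kb from the lower end of the gene; thick black marks are strong peaks, thin grey marks weaker ones, and triangles the members. The 8 members each lie under a strong mark of hPFE and overlap no mark of the other libraries.

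PTHLH encodes parathyroid hormone-related protein, a relative of the parathyroid hormone, and had 7 members among 19 distal regions. Strong distal regions there numbered 4 and 6 (hESC), 3 and 5 (hDE), 3 and 4 (hAFE) and 14 (hPFE). Members had fold enrichments of 9.34, 7.20, 6.83, 5.41, 4.84, 4.44 and 4.00, with 1 in the gene's span and 6 beyond its end, at 9107 to 59793 bp from it. The strongest was the nearest of these 6, at chr12:27981840-27982348, with a summit of 117 counts.

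EVA1A had 8 members among 21 distal regions, and its strong regions numbered 5 and 3 (hESC), 6 and 6 (hDE), 4 and 5 (hAFE) and 11 (hPFE). CDC42EP3 had 7 of 28, with 5 and 5 strong regions (hESC), 9 and 9 (hDE), 8 and 7 (hAFE) and 15 (hPFE), and its strongest member at chr2:37570783-37571493 had a fold enrichment of 12.9. SEMA3D, the gene of a secreted semaphorin that guides axons and vessels, had 7 of 31. Its strong regions numbered 5 and 4 (hESC), 4 and 13 (hDE), 7 and 5 (hAFE) and 15 (hPFE), and here hDE replicate 2 came close to hPFE. Its strongest member, at chr7:85071119-85071656, was weak, with a fold enrichment of 4.49. MARCHF1 had 7 of 25, FILIP1L, the gene of a filamin-interacting protein, 7 of 27, SGIP1, which encodes an endocytic adaptor, 7 of 30, and RHOBTB1, an atypical GTPase gene, 7 of 21.

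Further genes had 6 members each. PPARGC1A, a coactivator of mitochondrial genes, had 6 of 18, SNX19, a sorting nexin gene, 6 of 17, and FIGN, a microtubule-severing enzyme gene, 6 of 26. PRAG1, a pseudokinase gene, had 6 of 31, ADGRL2, the gene of a latrophilin receptor, 6 of 33, and SULF1, which encodes a sulfatase that edits heparan sulfate, 6 of 35. The last 8 of the 25 genes with the most members had 5 each. They were EXOC6B (of 17 distal regions), SPOCK3 (27), SUCLG2 (24), GUCY1A2 (24), PIK3C2G (12), PLCB4 (19), SETBP1 (32) and RND3 (18). Among genes with at least 8 distal regions, the share of members was highest at ADGRG2, an adhesion receptor gene (5 of 9), and at MDH2, PFDN1 and PARG (5 of 10, 4 of 8 and 4 of 8), with MDH2 coding for mitochondrial malate dehydrogenase, PFDN1 for a prefoldin subunit and PARG for a hydrolase of poly(ADP-ribose).

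Genes known from the pharyngeal pouches had members at about the share of all genes. PAX9, a transcription factor needed for the thymus and parathyroids, had 1 among 17 distal regions, at chr14:36718290-36718569 in the span of SLC25A21, with a fold enrichment of 7.91 and a summit of 63 counts. Its strong regions numbered 7 and 6 (hESC), 9 and 10 (hDE), 3 and 6 (hAFE) and 12 (hPFE), so all but 1 of those in hPFE had a peak at an earlier stage. EYA1, a transcriptional coactivator gene of pouches and ear, had 1 of 21, with a fold enrichment of 4.50. ISL1, a homeodomain factor gene, had 1 of 17, with 5.70. FOXA2, GATA4, GATA6, HOXA3, NKX2-3, PAX1, SOX17, SOX2 and TBX1 had none assigned to them, although HOXA3 and PAX1 had 4 and 7 strong distal regions in hPFE. The span of HOXA3 held 1 member, which was not assigned to it. The whole list of 30 genes of pharyngeal endoderm and pouches had 25 members among 384 distal regions (6.51%, interval 4.45% to 9.43%), which is near the 6.78% of all genes, and a member at 14 of its genes (46.7%, against 22.1% of all genes). The list of thymus and parathyroid fate had 7 of 97 (7.22%). Counting all strong distal regions, the pharyngeal list had 115 and 133 (hESC), 144 and 144 (hDE), 160 and 141 (hAFE) and 149 (hPFE), so hPFE lay within the range of the other libraries. Within it, EYA2 had 5 members among 28 distal regions and MEIS2 5 among 36. EYA2, a relative of EYA1, had fold enrichments of 9.47, 5.95, 5.84, 4.83 and 4.33 at its members, and MEIS2, a homeodomain cofactor of HOX proteins, 8.38, 4.85, 4.81, 4.65 and 3.43. TP63, a factor of stratified epithelia that is also on the list of thymus and parathyroid fate, had 3 of 20, the strongest with a fold enrichment of 10.2. TP63 had 11 strong regions in hPFE against 2 to 6 in the other libraries. FOXN1, on the same list, had no member.

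Lists of signalling genes were mostly near the share of all genes. For growth factor pathways it was 8.66% in the FGF list (24 of 277 regions, at 16 of 22 genes), 7.59% in the BMP list (17 of 224, at 13 of 19), 6.98% in the TGF-beta list (12 of 172, at 8 of 15) and 6.83% in the WNT list (20 of 293, at 11 of 22). SPRY1, a feedback inhibitor of FGF signalling, and FGF7, a ligand for epithelia, had 3 members each. Those of SPRY1 were among 11 distal regions and those of FGF7 among only 5. BMP5 had 3 of 13 and BMP4 2 of 9, both ligands. TGFB2, a TGF-beta ligand, had 3 of 20, and SKIL, an inhibitor of SMAD proteins, had 2 members and no other distal region. FZD1 and ROR1, WNT receptors, had 3 of 15 and 3 of 30, and DKK1, a secreted WNT inhibitor, 3 of 10. The Notch list stood at 5.17% (9 of 174), but at 8.05% (14 of 174) without hAFE replicate 1, against 7.67% of all genes in that setting, and the retinoic acid list at 5.15% (7 of 136), in which ALDH1A2, the enzyme that makes retinoic acid in the embryo, had 2 of 11. The Hippo and YAP list stood at 9.22% (20 of 217). The effectors YAP1 and WWTR1 had 3 of 19 and 3 of 17, and the regulator AMOTL1 3 of 27. The AP-1 genes themselves held 3 members among 93 distal regions (3.23%), 1 each at JUNB, MAFK and MAF.

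Among adhesion, matrix and guidance genes the shares were 9.17% for collagens (31 of 338), 7.84% for semaphorins and their receptors (25 of 319), 7.02% for ephrins and Eph receptors (16 of 228) and 6.09% for integrins and laminins (19 of 312). COL11A1, a fibrillar collagen gene, had 5 of 18. ITGA2, the collagen-binding integrin alpha 2, had 4 of 10, the strongest at a −log10 p of 112. EFNA5, an ephrin ligand, had 4 of 41, and NRP1, a semaphorin coreceptor, had 4 of 28.

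Marker lists of cell types that the culture could hold gave shares on both sides of 6.78%. They were 9.05% for endothelium and blood (19 of 210, of which RUNX1 held 8), 8.70% for surface ectoderm and squamous epithelium (14 of 161), 7.77% for mesenchyme and fibroblasts (24 of 309), 6.67% for neural genes (10 of 150) and 6.32% for smooth and cardiac muscle (12 of 190). Intervals below 6.78% were found for neural crest (2.66%, 5 of 188, up to 6.07%) and definitive endoderm (3.42%, 8 of 234, up to 6.60%), and of the 28 lists only that of the RUNX family had an interval above it. Both low calls depended on the libraries and settings used. Without hAFE replicate 2, neural crest had 9 of 188 (4.79%, up to 8.85%) and definitive endoderm 12 of 234 (5.13%, up to 8.75%), and both intervals took in the 7.77% of all genes in that setting. The interval of neural crest also took in the share of all genes without hDE replicate 2 (7 of 188), and that of definitive endoderm without hESC replicate 2 (10 of 234). Both took it in beyond 5 kb of gene ends. Under all remaining settings the interval of definitive endoderm lay below. That of neural crest also took the share in with strong set by q, no peak within 500 bp elsewhere, weak peaks allowed elsewhere or gene ends within 50 kb. It lay below in the rest, among them 40,000 and 120,000 strong peaks. The RUNX family stayed above the share of all genes without any single library. Its interval took that share in with 120,000 strong peaks (11.6%, against 8.20% of all genes), with strong set by q (8.20%, against 5.56%), with no peak within 500 bp elsewhere (9.30%, against 5.17%) and with weak peaks allowed elsewhere (19.8%, against 14.5%). Other lists had intervals above the share in some settings. With 40,000 strong peaks these were BMP (8.73%) and Hippo and YAP (9.65%), against 4.84% of all genes. Collagens lay above with no peak within 500 bp elsewhere (7.69%). They also did with members inside a gene assigned to it (10.4%, against 7.05%). With weak peaks allowed, the lists of TGF-beta, Notch, semaphorins, mesenchyme, surface ectoderm, integrins and collagens lay above. The lists of liver, pancreas and hindgut (3.85%), pluripotency (3.66%), anterior foregut (4.89%), lung and thyroid (5.00%) and HOX genes (5.26%, 3 of 57) lay below and the housekeeping list (10.9%, 7 of 64) above, with intervals that take in 6.78%. Without hAFE replicate 2, anterior foregut stood at 7.52% and lung and thyroid at 8.13%, beside 7.77% of all genes. The interval of pluripotency lay below the share of all genes without hESC replicate 1, either hDE library or hAFE replicate 2. It took that share in without hESC replicate 2 or hAFE replicate 1. It also lay below beyond 5 kb of gene ends and with weak peaks allowed elsewhere, and took the share in under the remaining settings. MYOCD, a coactivator of smooth and cardiac muscle genes, had 5 of 22, and FN1, the fibronectin gene, 4 of 11. GRHL2 and GRHL3, factors of epithelial barriers, had 3 of 25 and 3 of 11. These are the highest genes of their lists, and many markers in the lists had no member. A member stood at 5 of 20 muscle genes, 13 of 28 mesenchyme and fibroblast genes and 8 of 18 surface ectoderm and squamous genes. ACTA2, TWIST1 and KRT5 were among those without. What part other cell types had in the members was not tested.

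**Figure D5:**
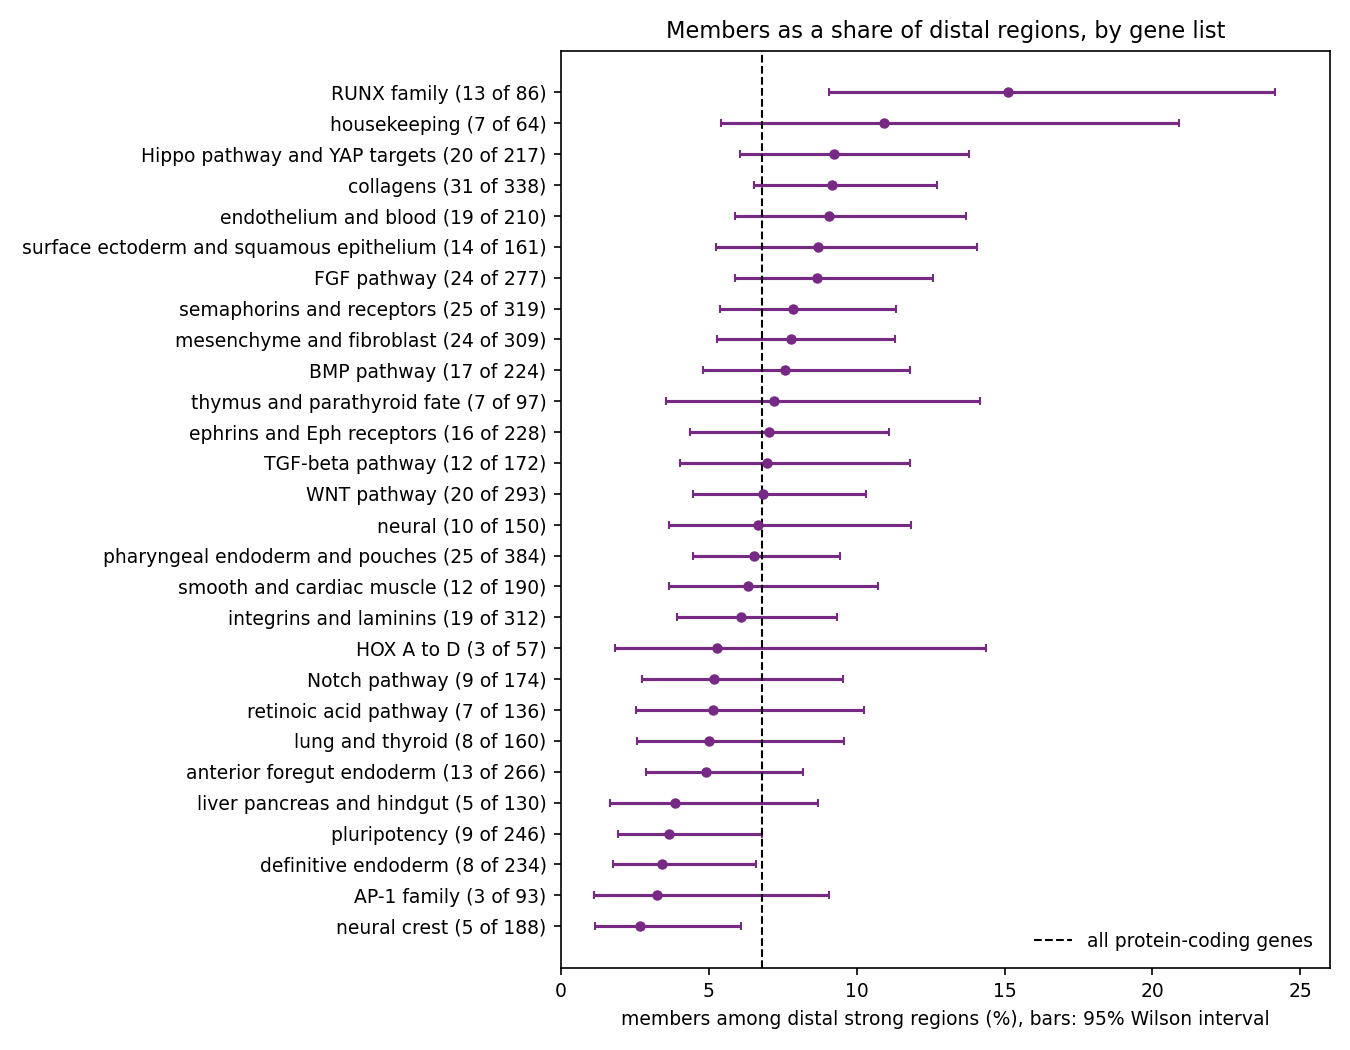
Members as a percentage of the distal strong regions assigned to the genes of each of 28 lists (horizontal axis), with 95% Wilson intervals; numbers in brackets are members and regions, and the dashed line is the 6.78% of all protein-coding genes. The RUNX family stands highest at 15.1% and neural crest lowest at 2.66%.

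The ends of most genes with many members were open at every stage. Of the 149 genes with 4 or more members, a strong peak within 1 kb of an end was found in 83.2% and 80.5% for hESC, 81.2% and 78.5% for hDE, 80.5% and 81.2% for hAFE and 83.9% for hPFE. For all genes the shares lay between 63.8% and 71.5%. All 7 libraries had a strong end peak at 105 of the 149 genes (70.5%), against 59.0% of all genes and 57.3% of the 15560 genes without a member. Only 5 of the 149 (3.36%) had a strong end peak in hPFE and in neither hAFE library, against 1.95% of all genes, and none had one in hPFE with no peak elsewhere. Transcript levels of these genes were not analysed here.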

How the data were processed

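Peak lists of 7 ATAC-seq libraries, 1 list per library and none pooled, were analysed as deposited. Transposase acted on isolated nuclei, and the DNA was amplified and size selected, per the labels' protocols. The submitters' processing notes give hg38 and DiffBind, without a version. For the peak caller and the aligner, a name is not given in the sources used here. File names carry a p limit of 0.01 and a limit of 300,000 peaks. Each deposited peak has a fold enrichment (a ratio of summit to local background), a −log10 p and a −log10 q, all used as the authors' values. Peak numbers follow the order of p in every library. For 97.2% to 100% of peaks a whole summit count and its local background reproduce fold and p within 0.001 of −log10 p, which gave the background as a measure of depth.

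Regions were built, filtered and assigned as the report states, with Python 3.11.15, pandas 2.3.3, numpy 2.4.6, scipy 1.17.1 and matplotlib 3.10.9, and the rule was tested on simulated peaks. Overlap means at least 1 bp. Gene ends came from RefSeq (GRCh38.p14), with 19970 protein-coding genes and without exons, so exons, introns and untranslated regions were not told apart. A genome sequence was not used here, so the planned search around all summits was replaced by RefSeq promoter windows, a change made after the files were seen.

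The members, the 28 gene lists (522 genes) and the motifs were chosen with earlier results of these data known. Named are the 25 genes with the most members, up to 3 per list, 13 pharyngeal and endoderm genes, the 10 members with the lowest p and the strongest member of 10 genes, of which some are not reported here. The genes with the highest shares of members, the runs of 4 and LOC105375208 were picked out after their values were seen. With 1 hPFE library and members chosen by their peaks, nothing was tested, and intervals are Wilson intervals (95%) for counting error only. Alternatives changed the limit of strong, the distance, the meaning of absence, the assignment of genes and the libraries.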

Additional observations from a re-analysis of the deposited data

How the results depend on the processing

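The number of members depends on the limit of strong. It was 4127 with the first 40,000 peaks of each library, 20537 with 120,000, 19733 with a −log10 q of at least 5, and 23542 where weak peaks in other libraries were allowed. Without single libraries it was 11774 to 12987. In the same settings the share inside genes was 44.6% with 40,000 and 46.6% with 120,000, and genes with a member numbered 1965, 6744 and, with weak peaks allowed, 6955. The median fold was 7.96 with 40,000, 4.32 with 120,000, 4.35 by q, 5.66 beyond 5 kb of gene ends, 5.70 both with no peak within 500 bp elsewhere and with weak peaks allowed, and 5.33 as a median over the peaks of a region. AP-1 stood in 69.4% of windows with 40,000 peaks (25 of 36) and in 44.4% to 55.6% under the other settings, all of them added after the shares were seen. Windows of 50 or 200 bases around summits, as planned, were not run. The one-library regions with a peak in the replicate were, with 40,000 peaks, 97.0% and 91.4% (hESC), 99.9% and 95.7% (hDE) and 94.9% and 97.4% (hAFE), and with 120,000 they were 43.99% and 60.2% (hESC), 88.1% and 69.5% (hDE) and 64.9% and 76.5% (hAFE). Counts at named genes stayed within 1.5 times in 283 of 350 comparisons and shares of lists in 327 of 392 (in 164 of 168 without single libraries). The shares of lists stayed within the interval given for them in 347 of 392. No paired analysis was possible because no result comes from a test. The limit of 300,000 peaks bounds absence in every library. The weakest listed summit stood at 3.78 times background in the deepest library, hDE replicate 2. It stood at 3.32 and 3.15 in hESC replicate 1 and hAFE replicate 1, whose backgrounds were 2.11 and 2.22. How far depth itself bears on absence was not tested.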
